A study of Mus musculus with 24 samples.

Results

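The BCL2 family was followed as 10 genes in cultured mouse neurons that carried different chains of the interleukin-1 (IL-1) receptor: Bcl2, Bcl2l1, Bcl2l2 and Mcl1, which hold cell death back, Bax and Bak1, which carry it out, and Bid, Bbc3, Pmaip1 and Bcl2l11, which start it. Its members were all probe sets whose symbol in the array's annotation was exactly 1 of these 10 names. This gave 31 of the 45037 probe sets on the array, for 9 of the 10 genes, out of 18193 genes with a probe set of their own: 6 for Mcl1, 5 each for Bcl2 and Bcl2l11, 4 each for Bcl2l1 and Bcl2l2, 3 for Bid, 2 for Bak1, and 1 each for Bbc3 and Pmaip1. No probe set carried the symbol Bax in the table used, and Bax was not analysed here. Of the 31 probe sets, 27 were bright enough to be tested, among 30468 tested on the whole array. The 4 untested ones were Bcl2 1440770_at, Bcl2l1 1426050_at, Bcl2l2 1430454_x_at and Bid 1448560_at, whose group means lay between -24.6 and 14.3 intensity units.

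BCL2 proteins decide whether the outer membrane of mitochondria stays intact. BAX and BAK form pores in it that let cytochrome c out and so switch on caspases, the proteases that dismantle the cell. BCL2, BCL-XL (the product of Bcl2l1), BCL-W (Bcl2l2) and MCL1 bind and hold back the pore formers, whereas BID, PUMA (Bbc3), NOXA (Pmaip1) and BIM (Bcl2l11) carry a single BH3 domain with which they occupy the protective members or trigger the pore formers. In neurons BIM and PUMA are known for their part in death after loss of trophic support or DNA damage, and MCL1 is a short-lived protein whose level follows its synthesis closely.

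The cells were embryonic cortical neurons of Il1rap-/- mice, in which the gene for AcP is disrupted, grown in serum-free Neurobasal medium with B-27 supplement. They expressed AcP (the accessory chain that IL-1 signalling needs), AcP and AcPb together, AcPb (its neuronal isoform), or, as the arm without an accessory chain, CD25, a subunit of the receptor for IL-2. Every arm thus shared the Il1rap-/- genotype and differed in the protein introduced. Each of the 4 arms was treated with IL-1b at 10 ng/ml or with a control stimulus for 4 h, with 3 arrays for each of the 8 groups and 24 in all. Nothing in the labels ties the 3 arrays of a group to different cultures or animals, so p-values here measure only how far these samples spread, and that spread may be technical. How the proteins were introduced, and into what share of the cells, is not given in the labels.

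Each array gave 1 linear intensity per probe set, with array medians of 55.02 to 66.41 units, and precision is limited by how many arrays there are. An intensity is not a level per length, so probe sets were compared between groups and never with each other. Neither the 5 Il1rap probe sets nor the 2 Il2ra (CD25) probe sets checked the labels: their arrays lay between 21.06 and 149.5 units for Il1rap and between 6.7 and 46.29 units for Il2ra, CD25 arrays overlapped arrays of the other arms on each, and where the probes lie relative to the deleted and the introduced parts is not stated. Of 7 genes known to respond to IL-1b, 6 rose with it in AcP cells and in AcP+AcPb cells and 0 in AcPb or CD25 cells. All 7 neuron markers were detected in every group and none was called in any comparison, whereas 1 of 7 microglia markers was bright enough to test and 3 or 4 of the 7 had group means at or below 0. The AcP control arrays agreed least among themselves, with mean correlations to the others of their group of 0.9684, 0.9643 and 0.9674, against 0.9766 to 0.9841 elsewhere. The array code number in the labels, whose meaning is not stated, was 21 for all AcP, AcPb and CD25 arrays, 22 for AcP+AcPb controls 1 and 2, and 23 for AcP+AcPb control 3 and the AcP+AcPb IL-1b arrays. Since the cultures were profiled in bulk, fewer cells of a type and less RNA per cell cannot be told apart.

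Promoter windows from RefSeq (build GRCm38.p6, 250 bases before to 50 after a gene's start) were found for 9 of the 10 genes, 14 windows in all. Shown are 3 windows, of Mcl1, Bcl2l11 and Bcl2, which have a probe set that passed a test below. Pmaip1, which passed as well, is the gene for which no window was found, so it was not searched. The first of the 2 Bcl2l11 windows is printed. In these windows a script searched both strands for the NF-kB consensus, the CRE core TGACG, the AP-1 site TGANTCA, the FOXO site GTAAACA, the C/EBP site TTGCNNAA and the p53 decamer. Capitals mark a match, and CGTCA is TGACG read on the other strand. The Mcl1 window is chr3:95658471-95658770 (plus strand), the Bcl2l11 window printed chr2:128125788-128126087 (plus strand) and the Bcl2 window chr1:106714241-106714540 (minus strand).
Mcl1: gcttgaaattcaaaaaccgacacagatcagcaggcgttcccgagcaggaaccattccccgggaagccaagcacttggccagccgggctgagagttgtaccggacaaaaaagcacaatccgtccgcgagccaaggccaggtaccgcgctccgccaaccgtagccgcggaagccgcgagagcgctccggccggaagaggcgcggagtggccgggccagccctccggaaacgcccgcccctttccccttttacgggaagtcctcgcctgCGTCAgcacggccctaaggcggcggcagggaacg
Bcl2l11: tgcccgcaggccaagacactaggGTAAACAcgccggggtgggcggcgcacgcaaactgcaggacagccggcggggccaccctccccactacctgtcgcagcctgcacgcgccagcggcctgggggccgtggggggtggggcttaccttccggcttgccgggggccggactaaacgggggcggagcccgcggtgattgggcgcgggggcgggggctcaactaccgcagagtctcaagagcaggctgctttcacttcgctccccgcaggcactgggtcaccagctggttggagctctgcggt
Bcl2: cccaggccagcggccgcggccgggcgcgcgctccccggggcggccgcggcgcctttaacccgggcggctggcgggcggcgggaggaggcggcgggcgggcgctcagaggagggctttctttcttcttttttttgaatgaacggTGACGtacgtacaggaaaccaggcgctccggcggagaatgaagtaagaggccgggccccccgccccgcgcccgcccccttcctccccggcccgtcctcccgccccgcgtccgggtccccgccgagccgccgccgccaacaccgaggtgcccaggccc
Mcl1 held the CRE core at window bases 267 to 271 and Bcl2 at bases 144 to 148, a motif present in 20.8% of all 32851 windows of this length. The printed Bcl2l11 window held the FOXO site at bases 24 to 30, a motif present in 3.65% of all windows, and the other Bcl2l11 window (chr2:128127325-128127624) held none of the motifs searched. The NF-kB consensus was found in 2 of the 14 windows, 1 of Bcl2l1 and 1 of Bbc3, against 8.46% of all windows, and in none of the 3 printed. The AP-1 site was in 0 of the 14 windows (7.81% of all). The CRE core was in 3 of the 14 and the FOXO site in 2, each with a Bbc3 window among them. The C/EBP site was in 1 window, of Bid (10.8% of all), and the p53 decamer in 1, of Bax (8.36% of all). A match is a run of letters, not evidence of binding.

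Mcl1, the short-lived inhibitor of BAK and BIM, was the one family gene with a probe set called higher after IL-1b. This was 1 of its 6 probe sets, and the call was in AcP cells. On Mcl1 1448503_at the intensity was 1601, 1741 and 1615 units in AcP IL-1b arrays, against 1085, 1346 and 1153 units in AcP control arrays. All 3 treated arrays lay above all 3 controls. The log2 change was 0.47 ± 0.07 (SE, 95% interval 0.31 to 0.62), a 1.38-fold rise, with an adjusted p of 0.004 in limma's moderated test. This was 1 of 27 family probe sets called at an adjusted p under 0.05 (higher), where 0.404% of all probe sets were called in the AcP response and 0.302% were called higher. Mcl1 1448503_at was called in 15 of 16 alternative fits. The fit with 1 probe set per gene is not among them. There Mcl1 is represented by its brightest probe set, 1437527_x_at, and no family gene was called in the AcP response.

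The other 5 Mcl1 probe sets moved the same way in AcP cells without passing the threshold, by 0.13 to 0.42 on the log2 scale. Mcl1 1416880_at read 1643, 1733 and 1669 units in AcP IL-1b arrays, against 1278, 1035 and 1492 units in AcP control arrays, a change of 0.42 ± 0.11 with an adjusted p of 0.17. Mcl1 1456243_x_at read 1527, 1462 and 1429 units in AcP IL-1b arrays, against 1340, 1087 and 1257 units in AcP control arrays, a change of 0.26 ± 0.07 with an adjusted p of 0.19. On both the groups did not overlap, while on Mcl1 1416881_at, 1437527_x_at and 1456381_x_at they did. Across the 24 arrays the 15 pairs of Mcl1 probe sets correlated with r between 0.257 and 0.93, so they did not report one and the same profile, and an _x_at probe set holds probes that may also match other transcripts. The rise on 1448503_at had an adjusted p of 0.014 without AcP control replicate 3, and Mcl1 1416880_at then passed the threshold as well (0.54, adjusted p of 0.022). In a fit of the 6 AcP arrays alone the change on 1448503_at was again 0.47 but its adjusted p was 0.52. The plot of Mcl1 intensities shows all 6 probe sets array by array.

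**Figure D1:**
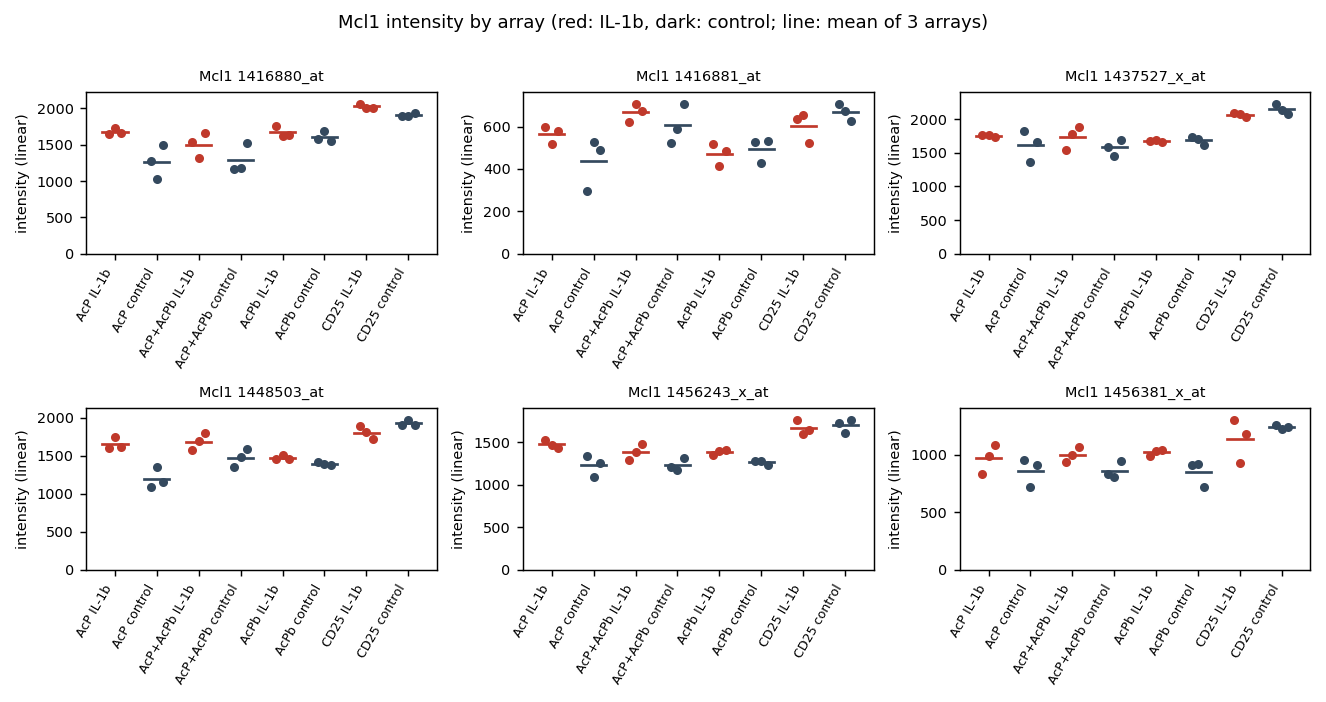
Intensity (linear units, y axis from 0) of the 6 Mcl1 probe sets on each of the 24 arrays, with IL-1b groups in red, control groups in dark blue and a line at the mean of 3 arrays. On 1448503_at the AcP IL-1b arrays sit between 1601 and 1741 units, above the AcP controls at 1085 to 1346 units, and the CD25 controls are the brightest of the 24 arrays on it.

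None of the other 21 tested family probe sets was called in AcP cells. Of all 27, 21 had a positive change and 6 a negative one, with a median of 0.18 against 0 over all tested probe sets, and 7 had an unadjusted p under 0.05 (8.24% of all probe sets did). The arrays did not overlap for 6 of 27 family probe sets that were higher (4.43% of all probe sets) and for 2 that were lower (5.68%). The positive changes included all 5 probe sets of Bcl2l11, which encodes BIM, the direct antagonist of MCL1: 1435448_at read 362, 391 and 356 units in AcP IL-1b arrays, against 315, 299 and 294 units in AcP control arrays (0.27 ± 0.09, adjusted p of 0.27), and the other 4 ran between 0.21 and 0.47. Of those 4, 1456006_at (with the 0.47) and 1426334_a_at were dim, with group means of 30.2 to 54.5 and 21.6 to 41.0 units. Bid, cut by caspase-8 to link death receptors with mitochondria, had 0.31 ± 0.13 on 1417045_at (adjusted p of 0.51). Its other tested probe set, 1447873_x_at, went the other way without overlap (-0.22, uncalled). It read 46.1 to 55.9 units in AcP IL-1b arrays, against 58.8 to 63.1 units in AcP control arrays. Pmaip1, whose product NOXA binds MCL1, had 0.41 ± 0.21 (adjusted p of 0.65), and Bbc3, a p53 target, had 0.23 ± 0.14 (adjusted p of 0.74).

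The protective genes other than Mcl1 gave values on both sides of 0 in AcP cells. The largest change of any family probe set was on the dim Bcl2 1443837_x_at, with 12.1, 10.3 and -1.86 units in AcP IL-1b arrays, against 86.3, 28.0 and 53.7 units in AcP control arrays. These groups did not overlap, yet the change of -1.58 ± 0.47 had an adjusted p of 0.24, and the same probe set had 1.05 ± 0.47 in AcP+AcPb cells (adjusted p of 0.46). The other 3 tested Bcl2 probe sets changed by -0.14 to 0.18 in AcP cells. Intervals were narrow for Bcl2l2 1423572_at (BCL-W), which had -0.02 (95% interval -0.12 to 0.07), and for Bcl2l1 1420888_at (BCL-XL), which had -0.10 (95% interval -0.24 to 0.05). The other 2 tested Bcl2l1 probe sets were positive, by up to 0.25, and uncalled.

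When AcPb was present beside AcP, no family probe set was called in the IL-1b response (0 of 27, against 0.256% of all probe sets), although 7 had an unadjusted p under 0.05 (9.78% of all). The arrays did not overlap for 4 higher (9.72% of all) and 1 lower (7.18%) of the 27. Mcl1 1448503_at read 1570, 1689 and 1795 units in AcP+AcPb IL-1b arrays, against 1358, 1479 and 1591 units in AcP+AcPb control arrays, and the groups overlapped (0.19 ± 0.07, adjusted p of 0.40). The 6 Mcl1 probe sets changed by 0.13 to 0.22. The lowest adjusted p, 0.14, belonged to Bcl2l11 1435448_at, with 375, 391 and 327 units in AcP+AcPb IL-1b arrays, against 300, 293 and 259 units in AcP+AcPb control arrays (0.34 ± 0.09). All 5 Bcl2l11 probe sets were positive here too, by 0.10 to 0.36. Within array code 23, where the 3 IL-1b arrays met a single control array, the Mcl1 changes were -0.08 to 0.08 and that of Bcl2l11 1435448_at was 0.47, given as values that rest on 1 control array. With the array code as a block in the limma fit, 0 of the 27 were called.

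AcPb alone and CD25 gave no called family probe set either. In AcPb cells 0 of 27 were called (0.00985% of all probe sets were), 14 changes were positive and 13 negative, and 4 had an unadjusted p under 0.05 (10.1% of all). The arrays did not overlap for 7 higher (10.3% of all) and 3 lower (11.5%). Mcl1 1448503_at read 1453, 1504 and 1460 units in AcPb IL-1b arrays, against 1418, 1387 and 1384 units in AcPb control arrays (0.08, 95% interval -0.08 to 0.23). The lowest adjusted p there, 0.38, was that of Bcl2l1 1420887_a_at, with 179, 214 and 175 units in AcPb IL-1b arrays, against 254, 279 and 292 units in AcPb control arrays (-0.51 ± 0.19). Bcl2l1 1426191_a_at was also lower without overlap in this arm, and uncalled. It read 94.5, 76.2 and 81.4 units in AcPb IL-1b arrays, against 143, 100 and 124 units in AcPb control arrays. The brightest, Bcl2l1 1420888_at, had -0.06 in the same arm (95% interval -0.20 to 0.09).

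In CD25 cells 0 of 27 were called by limma (0 of 30468 over the array), and 0 family probe sets had an unadjusted p under 0.05 (5.62% of all probe sets did). The arrays did not overlap for 2 higher (7.06% of all) and 4 lower (6.95%). Mcl1 1448503_at read 1886, 1810 and 1717 units in CD25 IL-1b arrays, against 1901, 1972 and 1909 units in CD25 control arrays (-0.10, 95% interval -0.25 to 0.06). Pmaip1 had 312, 238 and 322 units in CD25 IL-1b arrays, against 385, 359 and 401 units in CD25 control arrays, without overlap but with an adjusted p of 0.88 (-0.39 ± 0.21).

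**Figure D2:**
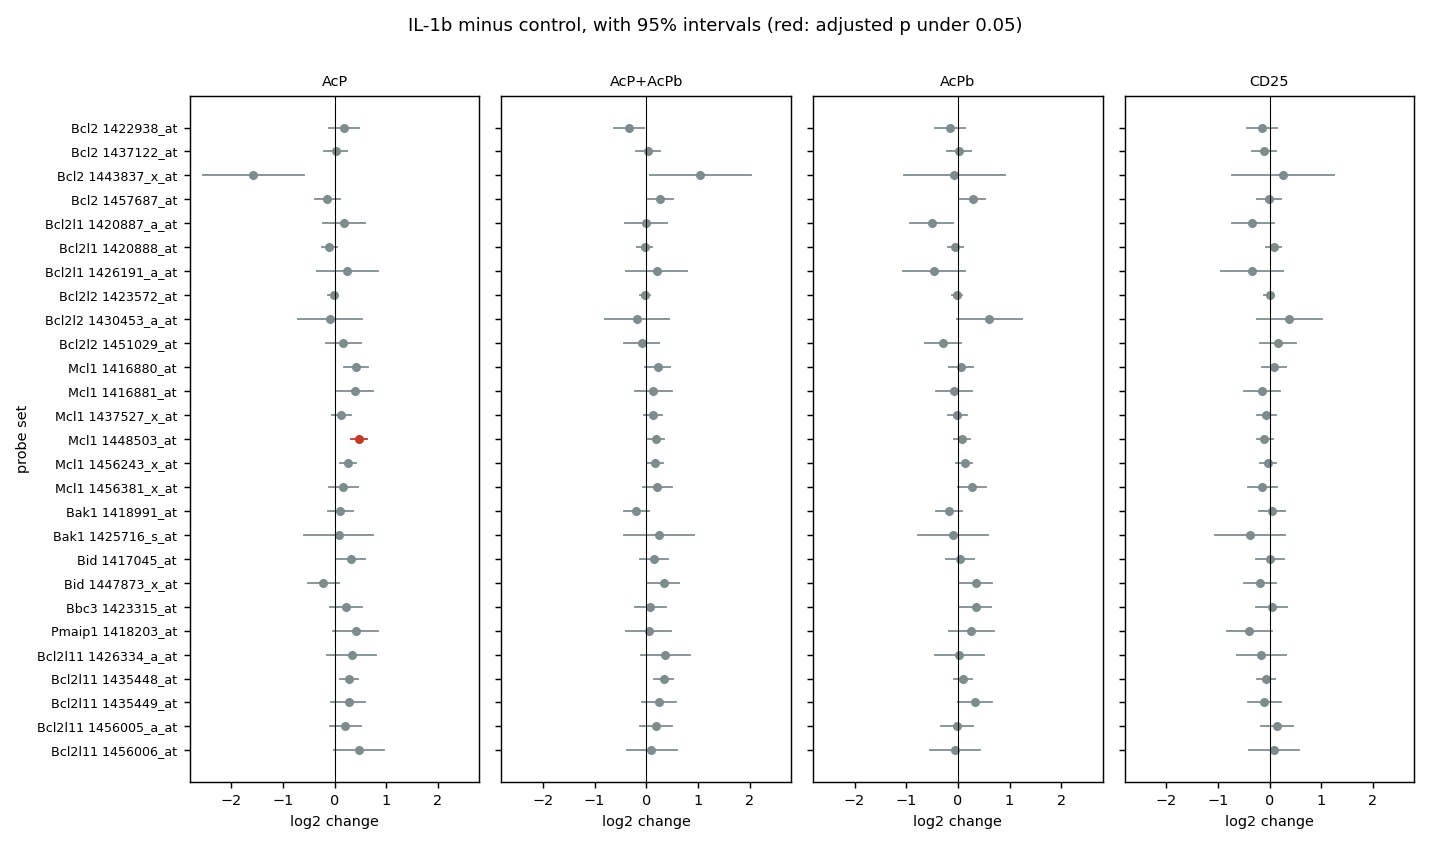
Log2 change (IL-1b minus control, x axis, on the log2(value + 16) scale) of the 27 tested family probe sets in each of the 4 arms, with 95% intervals from limma and red for an adjusted p under 0.05. The single red point is Mcl1 1448503_at in AcP cells at 0.47, and all Mcl1 and Bcl2l11 points of the AcP and AcP+AcPb panels lie to the right of 0.

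The difference between arms was tested directly as the response of one arm minus that of another. For Mcl1 1448503_at the AcP response exceeded the CD25 response by 0.56 ± 0.11 (95% interval 0.34 to 0.78, adjusted p of 0.03). It was the 1 family probe set of 27 called in this test, where 0.190% of all probe sets were called, and 6 of 27 had an unadjusted p under 0.05 (8.50% of all). The other 5 Mcl1 probe sets had differences of 0.18 to 0.55 with adjusted p between 0.46 and 0.70. This call was lost in 11 of 22 alternative fits, while the sign held in all 22. It was lost under quantile normalization (0.54, adjusted p of 0.085), in a fit of the arrays compared alone (adjusted p of 0.26), and without any 1 of the 3 CD25 control arrays (0.55 to 0.57, adjusted p of 0.065 to 0.087). It was also lost without CD25 IL-1b replicate 2 or 3 (adjusted p of 0.08 and 0.081), AcP control replicate 1 (0.089) or AcP IL-1b replicate 1, 2 or 3 (0.052, 0.11 and 0.064). Pmaip1 had a difference of 0.79 ± 0.29 that was not called (adjusted p of 0.48).

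No family probe set was called for AcPb minus CD25 (0 of 27, against 0.00328% of all probe sets; 3 of 27 against 9.59% at an unadjusted p under 0.05), where Mcl1 1448503_at had 0.17 (95% interval -0.05 to 0.39). None was called for AcP+AcPb minus AcP either (0 of 27, against 0.00328%; 5 of 27 against 5.12% unadjusted). There the 6 Mcl1 probe sets ran between -0.28 and 0.04, and 1448503_at had -0.28 ± 0.11 (adjusted p of 0.88), so a smaller Mcl1 response beside AcPb was not shown. The AcP response enters both the first and the last of these comparisons, and the CD25 response both comparisons with CD25.

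Larger differences lay between the arms before any IL-1b. Under the control stimulus Mcl1, Pmaip1, Bcl2 and Bcl2l11 were lower in AcP cells than in CD25 cells, 9 of 27 family probe sets (33.3%) against 10.3% of all probe sets called in either direction and 6.13% called lower. None of the 27 was called higher in AcP, AcP+AcPb or AcPb cells, against 4.16%, 5.35% and 1.18% of all probe sets. In AcP+AcPb cells 9 of 27 (33.3%) of the same 4 genes were lower than in CD25 cells, against 14.3% of all called and 8.92% called lower. In AcPb cells 5 of 27 (18.5%), of Mcl1 and Pmaip1, were lower than in CD25 cells, against 4.59% of all called and 3.42% called lower. Of these calls, 6 of 9, 5 of 9 and 4 of 5 in AcP, AcP+AcPb and AcPb cells were probe sets of Mcl1. The family shares thus count 1 gene several times and are shares of probe sets, not of genes. At an unadjusted p under 0.05 there were 13, 14 and 11 of 27 in AcP, AcP+AcPb and AcPb cells (24.9%, 30.2% and 17.7% of all). Family arrays lay wholly below the CD25 control arrays for 13, 12 and 13 of 27 (12.6%, 20.5% and 16% of all) and wholly above for 1, 0 and 1 (11.6%, 18.3% and 13.3%). Mcl1 gave 6, 5 and 6 of the probe sets wholly below. The 3 comparisons share the CD25 control arrays, so their agreement is not independent. The AcP control arrays also enter the AcP response to IL-1b. The Mcl1 rise in AcP cells and the lower Mcl1 of AcP than CD25 control arrays are thus not independent results either. In the AcP+AcPb comparison the array code and the arm cannot be told apart.

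Pmaip1, the p53-induced gene for NOXA, showed the largest called difference of the family in AcP and AcPb cells, and shared it with Bcl2 1457687_at in AcP+AcPb cells. Pmaip1 1418203_at read 128, 110 and 182 units in AcP control arrays, 177, 202 and 314 units in AcP+AcPb control arrays and 163, 161 and 211 units in AcPb control arrays, against 385, 359 and 401 units in CD25 control arrays. No control array of the other arms reached the CD25 control arrays. Relative to CD25 the log2 difference was -1.37 ± 0.21 in AcP cells (adjusted p of 0.00025), -0.73 ± 0.21 in AcP+AcPb cells (adjusted p of 0.026) and -1.04 ± 0.21 in AcPb cells (adjusted p of 0.0056). The AcP and AcPb calls held in all 17 alternatives each, whereas the AcP+AcPb call was lost in 6 of 16, including each fit without 1 CD25 control array (-0.77 to -0.69, adjusted p of 0.051 to 0.081) and those without AcP+AcPb control replicate 1 or 2 (-0.57 and -0.66, adjusted p of 0.11 in both). In the order of group means, CD25 control (381.6 ± 21 units, SD, n = 3) came first and did not overlap CD25 IL-1b (290.5 ± 45.6 units), and each of the 7 groups from there down to AcP control (140.3 ± 37.3 units) overlapped the next.

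All 6 Mcl1 probe sets were lower in AcP than in CD25 control arrays, by 0.42 to 0.69 on the log2 scale. Mcl1 1448503_at read 1085, 1346 and 1153 units in AcP control arrays, 1358, 1479 and 1591 units in AcP+AcPb control arrays and 1418, 1387 and 1384 units in AcPb control arrays, against 1901, 1972 and 1909 units in CD25 control arrays. The difference was -0.69 ± 0.07 in AcP cells (adjusted p of 8.7e-06), -0.38 ± 0.07 in AcP+AcPb cells (adjusted p of 0.0023) and -0.46 ± 0.07 in AcPb cells (adjusted p of 9e-04). Without AcP control replicate 3 the AcP difference was -0.67 (adjusted p of 6.3e-05). In that fit 11 of the 27 family probe sets were called, and the count over all probe sets was higher too, at 5262 against 3135. In AcP+AcPb cells 5 of the 6 Mcl1 probe sets were called, all but 1416881_at (-0.15 ± 0.17), and in AcPb cells 4 of 6, all but 1416880_at and 1416881_at (-0.25 and -0.42). Of the 4 AcPb calls, 1448503_at and 1456243_x_at held in all 16 alternatives, while 1437527_x_at was lost without any 1 of the 6 arrays compared and 1456381_x_at without any 1 CD25 control array or AcPb control replicate 3. Both were also lost with array medians centred, and 1456381_x_at in a fit of the compared arrays alone. In AcP cells 1416881_at was lost without CD25 control replicate 1 or 2 or AcP control replicate 1, and 1456381_x_at without AcP control replicate 2 and with array weights. In AcP+AcPb cells 1456381_x_at was lost without AcP+AcPb control replicate 2. In a fit of the AcP and CD25 control arrays alone, 5 of the 6 AcP calls of Mcl1 were lost (adjusted p of 0.13 to 0.26), all but 1448503_at, and 2 of the 27 family probe sets were called instead of 9. After IL-1b the AcP arrays (1601 to 1741 units) still lay below the CD25 control arrays (1901 to 1972 units) on 1448503_at. In the order of its group means CD25 control (1927 ± 38.8 units, SD, n = 3) was first and AcP control (1195 ± 135 units) last, and neither overlapped its neighbour.

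**Figure D3:**
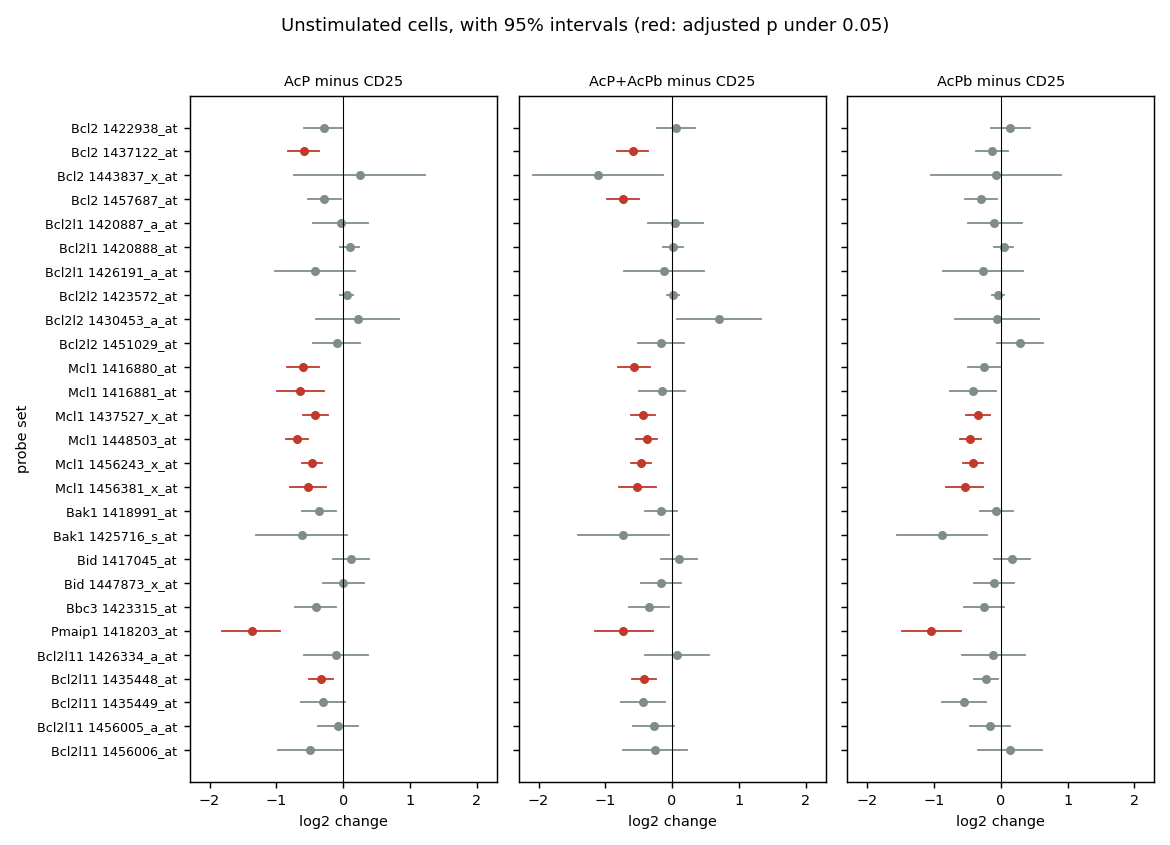
Log2 difference from CD25 cells under the control stimulus (x axis) of the 27 tested family probe sets in AcP, AcP+AcPb and AcPb cells, with 95% intervals from limma and red for an adjusted p under 0.05. Every red point lies left of 0, the Mcl1 points between -0.69 and -0.35 and Pmaip1 at -1.37, -0.73 and -1.04.

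Bcl2, the founding protective member, was lower than in CD25 cells on 1437122_at, with 66.6, 61.7 and 93.2 units in AcP control arrays and 73.1, 61.8 and 85.7 units in AcP+AcPb control arrays, against 121, 113 and 120 units in CD25 control arrays. The difference was -0.59 ± 0.11 in both (adjusted p of 0.0017 in AcP and 0.0016 in AcP+AcPb cells), while AcPb cells had -0.14 ± 0.11 (adjusted p of 0.58). The AcP call was lost in the fit of the compared arrays alone (adjusted p of 0.14). The plot of the other genes shows a break on this probe set: all AcP and AcP+AcPb arrays, with or without IL-1b, lay between 61.7 and 93.2 units, and all AcPb and CD25 arrays between 101 and 121 units. Whether AcPb and AcP cells differ here was not tested. Bcl2 1457687_at was called in AcP+AcPb cells (-0.73 ± 0.11, adjusted p of 0.00033), with 194, 163 and 187 units in AcP+AcPb control arrays, against 323, 273 and 339 units in CD25 control arrays. It also passed in AcP cells without AcP control replicate 1 (-0.42, adjusted p of 0.021) and in AcPb cells with array weights (-0.34, adjusted p of 0.022). The 4 Bcl2 probe sets correlated with each other at r between -0.0896 and 0.695 over the 24 arrays, and 1422938_at was uncalled in all 3 arms (-0.29, 0.06 and 0.14 in AcP, AcP+AcPb and AcPb cells).

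Bcl2l11 1435448_at read 315, 299 and 294 units in AcP control arrays, 300, 293 and 259 units in AcP+AcPb control arrays and 307, 337 and 340 units in AcPb control arrays, against 351, 425 and 383 units in CD25 control arrays. The difference from CD25 cells was -0.33 ± 0.09 in AcP cells (adjusted p of 0.017) and -0.42 ± 0.09 in AcP+AcPb cells (adjusted p of 0.003), and the probe set had -0.22 ± 0.09 in AcPb cells (adjusted p of 0.17). The AcP call was lost in 5 of 17 alternatives, among them those without CD25 control replicate 2 or 3 or AcP control replicate 2. The other 4 Bcl2l11 probe sets were not called in any of the 3 arms, with the lowest adjusted p, 0.051, on 1435449_at in AcPb cells (-0.55 ± 0.16). That probe set passed in 4 alternatives, with a pseudocount of 64, a dim filter on the mean, array weights, and without AcPb control replicate 3 (-0.69 to -0.42, adjusted p of 0.032 to 0.049).

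Bak1, Bbc3, Bid, Bcl2l1 and Bcl2l2 had no called probe set under the control stimulus. Bak1 1418991_at, for the pore former BAK, read 114, 85.6 and 124 units in AcP control arrays, against 134, 137 and 155 units in CD25 control arrays, without overlap (-0.36 ± 0.12, adjusted p of 0.058), and passed without AcP control replicate 3 (-0.46, adjusted p of 0.018) and with 1 probe set per gene (adjusted p of 0.042). Bbc3 read 232, 174 and 240 units in AcP control arrays, against 261, 348 and 267 units in CD25 control arrays (-0.41 ± 0.14, adjusted p of 0.077), and likewise passed without that array (-0.49, adjusted p of 0.043). Bak1 1425716_s_at had -0.62, -0.73 and -0.89 in AcP, AcP+AcPb and AcPb cells (adjusted p of 0.24, 0.13 and 0.14). Bid 1417045_at had 0.12, 0.11 and 0.17 in AcP, AcP+AcPb and AcPb cells. Bcl2l1 1420888_at had 0.10, 0.02 and 0.04 and ran over all 24 arrays between 975 and 1233 units. Bcl2l2 1423572_at had 0.05, 0.01 and -0.04 and ran between 463 and 517 units, with no 95% interval reaching beyond -0.14 or 0.15. The dim Bcl2l2 1430453_a_at had 0.22, 0.70 and -0.06, and its AcP+AcPb value (adjusted p of 0.13) passed with array weights (0.78, adjusted p of 0.045).

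**Figure D4:**
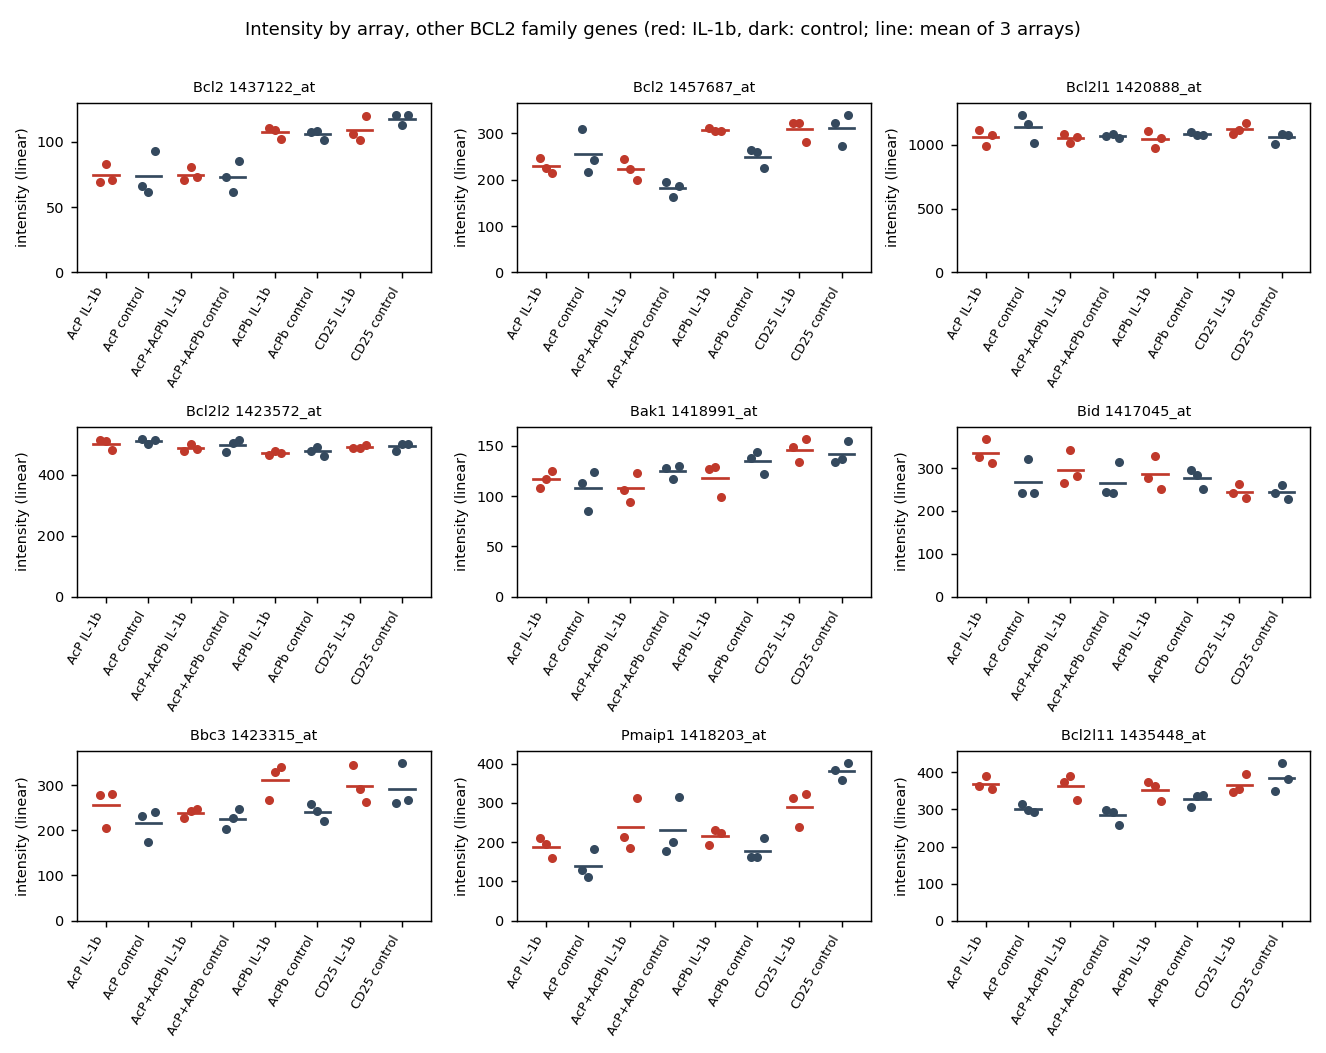
Intensity (linear units, y axis from 0) of 9 probe sets of the other family genes on each of the 24 arrays, with IL-1b groups in red, control groups in dark blue and a line at the mean of 3 arrays. Pmaip1 is highest in CD25 control arrays (359 to 401 units), Bcl2 1437122_at separates AcP and AcP+AcPb arrays from AcPb and CD25 arrays, and Bcl2l1 1420888_at and Bcl2l2 1423572_at run between 975 and 1233 and between 463 and 517 units.

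CD25 control arrays also differed from the other arms in markers of other cells and in IL-1b response genes. Over all probe sets 6.13%, 8.92% and 3.42% were called lower and 4.16%, 5.35% and 1.18% higher in AcP, AcP+AcPb and AcPb cells. The summed intensity of 6 progenitor and dividing-cell markers was 2990 to 3319 units in AcP control arrays, 2740 to 3048 in AcP+AcPb control arrays and 3293 to 3520 in AcPb control arrays, against 4145 to 4471 in CD25 control arrays, with 3, 4 and 2 of the 6 called lower in AcP, AcP+AcPb and AcPb cells and Hes5 called higher in each. The sum of 6 astrocyte markers was 9797 to 11260, 11410 to 12680 and 10820 to 12030 units in AcP, AcP+AcPb and AcPb control arrays, against 9719 to 13300 in CD25 control arrays, and its members went both ways: 3, 1 and 2 of 6 were called lower and 2, 2 and 0 higher in AcP, AcP+AcPb and AcPb cells. Gfap was lower in AcP (-1.98 ± 0.29) and AcPb cells (-1.73 ± 0.29), whereas Slc1a2 (0.67 and 0.55) and S100b (0.49 and 0.52) were higher in AcP and AcP+AcPb cells. The sum of 5 oligodendrocyte markers was 1371 to 1987, 799.4 to 1248 and 1764 to 2436 units in AcP, AcP+AcPb and AcPb control arrays, against 1496 to 2838 in CD25 control arrays, with Mbp called lower in AcP+AcPb cells (-1.70). Of 6 endothelial, mural and fibroblast markers 4 were tested and 1 or 2 had group means at or below 0; their sum was 344 to 384.1, 302.2 to 335.2 and 338.1 to 414.2 units in AcP, AcP+AcPb and AcPb control arrays, against 338.4 to 428.1 in CD25 control arrays. Col3a1 was lower in AcP (-0.78) and AcP+AcPb cells (-0.74), and Col1a1 in AcP+AcPb cells (-0.57). Of the 7 IL-1b response genes, 4, 3 and 4 were lower in AcP, AcP+AcPb and AcPb control arrays than in CD25 control arrays, among them Cebpd (-3.33 ± 0.26 in AcP cells). The sum of 7 neuron markers was 32820 to 37830 units in AcP control arrays, against 31640 to 33840 units in CD25 control arrays. No marker was at or below 0 in any control group among the progenitor, astrocyte, oligodendrocyte and neuron lists. The part of any of these in the Mcl1, Pmaip1, Bcl2 and Bcl2l11 differences was not tested.

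Of the tested genes in 6 apoptosis lists (8 other BCL2 family genes, 14 of caspases and mitochondrial release, 8 caspase inhibitors and adaptors, 13 of p53 and its targets, 12 upstream regulators, and 8 that degrade or bind MCL1 and BIM), each represented by its brightest probe set, 0 were called by limma in any of the 4 IL-1b responses, where 0.404%, 0.256%, 0.00985% and 0% of all probe sets were called in AcP, AcP+AcPb, AcPb and CD25 cells, and list medians lay between -0.09 and 0.18 in them. Without IL-1b, 7, 1 and 4 of 13 genes of p53 and its targets were called lower than in CD25 cells in AcP, AcP+AcPb and AcPb cells, against 6.13%, 8.92% and 3.42% of all probe sets, so that the AcP+AcPb count was near the background. The list medians were -0.32, -0.13 and -0.26, against 0.02, 0 and 0 over all probe sets. Perp, a p53-induced membrane protein, averaged 76.6 ± 9.74 units in AcP, 79.4 ± 6.74 in AcP+AcPb and 80.1 ± 11.7 in AcPb control arrays, against 146 ± 28.7 units in CD25 control arrays (SD, n = 3 each), and was called in all 3 arms (-0.80, -0.75 and -0.74). Phlda3 (-0.52), Mdm2 (-0.46), the main p53 inhibitor, and Cdkn1a (-0.39), the cell cycle inhibitor p21, were lower in AcP cells, and Phlda3 (-0.42), Cdkn1a (-0.39) and Ccng1 (-0.38), the cyclin G1 gene, in AcPb cells. Ccng1 was called lower in AcP cells as well (-0.39). Bbc3 and Pmaip1 are themselves p53 targets and were not in this list.

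Among 12 upstream regulators of the death-starting genes, 2, 4 and 1 were lower in AcP, AcP+AcPb and AcPb cells than in CD25 cells and 0 were higher, against 6.13%, 8.92% and 3.42% of all probe sets called lower. Jun, which drives Bcl2l11 in neurons deprived of trophic support, averaged 382 ± 66.8 units in AcP, 369 ± 82.2 in AcP+AcPb and 425 ± 46.9 in AcPb control arrays, against 630 ± 62.9 units in CD25 control arrays, and was called in all 3 arms (-0.71, -0.76 and -0.55). Foxo3, which encodes a FOXO transcription factor, was lower in AcP (-0.60) and AcP+AcPb cells (-0.56). Foxo1, for another FOXO factor, and Atf4, a factor of the integrated stress response, were lower in AcP+AcPb cells (-0.57 and -0.26). Of 14 genes of caspases and mitochondrial release, Casp12 was called lower in all 3 arms (adjusted p of 0.0082, 0.011 and 0.0059), with group means of 0.01, 3.24 and -1.32 units in AcP, AcP+AcPb and AcPb control arrays, against 68.7 units in CD25 control arrays. Since those 3 groups lie at about 0, the size of its difference is set by the floor and the pseudocount and is not given. In the same list Casp1 was lower in AcPb cells, at 15.4 ± 11.1 units against 60.6 ± 6.54 units in CD25 control arrays (SD, n = 3 each), and Apaf1, the apoptosome scaffold, higher in AcP+AcPb cells (0.26). Birc5, the survivin gene of dividing cells, was lower in AcP (-1.69) and AcP+AcPb cells (-1.74), the 1 call each among 8 caspase inhibitors and adaptors. Bnip3 was higher in AcP+AcPb cells (0.43), the single call among 8 other BCL2 family genes, and 0 of 8 genes that degrade or bind MCL1 and BIM were called.

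Over the 8 group means the profiles most like Mcl1 1448503_at were those of Spsb1 (r = 0.9855), Ctbp2 (r = 0.9802) and Ptk7 (r = 0.9792), given as a description among 30468 probe sets. Ptk7 had group means of -16.5 to 54.7 units and so rests on dim values. Probe sets of one gene often disagreed: the 3 pairs for Bcl2l2 correlated at r between -0.0708 and -0.0158 over the arrays, the 3 for Bcl2l1 between -0.414 and 0.608, and the 10 for Bcl2l11 between -0.257 and 0.632.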

How the data were processed

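The data were 24 Affymetrix mouse expression arrays, 1 per sample. The deposited values are linear intensities, 1 per probe set and array, from -1617.3 to 13068.67, with 16.4 to 18.22% below 0. Per the labels' protocols, RNA was amplified by an Eberwine protocol with biotin labelling; the summarisation and scaling the authors used are not given in the sources used here. Groups came from the sample titles.

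Of 45077 probe sets, 40 controls were left out. Of the rest, 34945 carried 1 gene symbol, 932 several and 9160 none, per the platform annotation, and only single symbols were used for names. Values below 0 were set to 0, 16 was added, and log2 was taken, which understates changes of dim probe sets. Probe sets above their array's 40th percentile on at least 3 arrays (30468) were tested with limma 3.58.1 (R 4.3.3; lmFit and eBayes) in 1 fit of 8 group means over all 24 arrays (16 residual degrees of freedom). P-values were adjusted by Benjamini-Hochberg over all tested probe sets of a comparison and called under 0.05. Intervals are 95%. The script was tested on simulated data.

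The members, the lists and the tests were chosen with earlier results of these data known. Every member probe set was accounted for. From each list up to 4 called genes per comparison were named, largest change first, with Ccng1 in AcP cells named besides. Genes alike were ranked by Pearson correlation over 8 group means. Alternatives covered the pseudocount (64), a generalised log, quantile and median scaling, the dim filter, 1 probe set per gene, the array code or the replicate number as a block, array weights, fits of the compared arrays alone, and each array left out.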

Additional observations from a re-analysis of the deposited data

Results flagged for a closer look

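The AcP and CD25 responses of Mcl1 1448503_at to IL-1b differed by a direct test of the difference, 0.56 on the log2 scale (SE 0.11, limma adjusted p of 0.03). The response was 0.47 in AcP cells and -0.10 in CD25 cells, with 3 of 3 AcP IL-1b arrays above every AcP control array and 3 of 3 CD25 IL-1b arrays below every CD25 control array. Over 22 alternatives the difference ran between 0.50 and 0.65 and its adjusted p between 0.0025 and 0.26, and it passed the threshold in 11 of them. The cause was not tested.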

How the results depend on the processing

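The called family changes kept their sign in every alternative run. Uncalled ones did not all do so: within array code 23 the AcP+AcPb response was -0.02 on Mcl1 1416880_at, -0.08 on 1416881_at and -0.41 for Pmaip1, against 0.22, 0.14 and 0.05 over all arrays of that arm. With 1 probe set per gene, Mcl1 is represented by 1437527_x_at. The family counts, out of 9 genes, became 0 in the AcP response and 0 in AcP minus CD25, and 4, 4 and 2 in unstimulated AcP, AcP+AcPb and AcPb cells. Over all probe sets the counts were 77 (AcP response), 1 (AcPb response), 35 (AcP minus CD25), 3 (AcPb minus CD25) and 2664 (unstimulated AcP+AcPb). Shares over all genes are not given for this setting, so its family counts are not set against a background. Fitting only the arrays compared left 0 family probe sets in the AcP response and in AcP minus CD25 and 2 in unstimulated AcP cells, and over all probe sets 48, 8, 6 and 9 in the AcP, AcP+AcPb, AcPb and CD25 responses, 2 in AcPb minus CD25, 0 in AcP+AcPb minus AcP, and 569 and 2680 in unstimulated AcP and AcP+AcPb cells, with fewer degrees of freedom by construction. Array weights gave 50 (AcP response), 185 (AcPb response), 25 (AcPb minus CD25), 1571 (unstimulated AcP) and 2994 (unstimulated AcPb) over all probe sets, and 8 family probe sets in unstimulated AcPb cells. Quantile normalization left 0 family probe sets in AcP minus CD25 and 5 of all in AcPb minus CD25. Centring array medians gave 3 family probe sets in unstimulated AcPb cells, 2 of all in AcPb minus CD25 and 0 in AcP+AcPb minus AcP. The count over all probe sets in unstimulated AcPb cells is not given for this setting. Its family count is therefore not set against a background. A generalised log and a dim filter on the mean each gave 0 of all in AcPb minus CD25, and no dim filter gave 4 in the CD25 response and 2 in AcP+AcPb minus AcP. The array code as a block gave 41 in the AcP+AcPb response and 0 in AcP+AcPb minus AcP, and could not be fitted for unstimulated AcP+AcPb cells. The cause of these shifts was not tested otherwise.

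Leaving out 1 array at a time gave 1 to 2 family probe sets in the AcP response (2 without AcP control replicate 3), 0 to 1 in AcP minus CD25, 7 to 11, 7 to 9 and 3 to 4 in unstimulated AcP, AcP+AcPb and AcPb cells, and 0 in the other comparisons. Over all probe sets the counts were 65 to 322, 42 to 143, 1 to 14 and 0 to 2 in the AcP, AcP+AcPb, AcPb and CD25 responses. They were 46 to 276 in AcP minus CD25, 0 to 13 in AcPb minus CD25 and 1 to 7 in AcP+AcPb minus AcP, and 2017 to 5262, 2271 to 3762 and 839 to 974 in unstimulated AcP, AcP+AcPb and AcPb cells.

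Replicate numbers did not pair the samples: correlations of same-numbered deviations ran between -0.121 and 0.194 over 21 pairs. With the replicate block the count over all probe sets in the AcPb response was 1, and the family counts were 1 in the AcP response, 1 in AcP minus CD25, 9, 9 and 5 in unstimulated AcP, AcP+AcPb and AcPb cells, and 0 elsewhere. Other counts over all probe sets are not given for this block, so these family counts are not set against a background. Dim probe sets such as Bcl2 1443837_x_at carry the least precise changes.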
